A study of Homo sapiens with 8 samples.

Results

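The genes described here are 10 members of the ETS family of transcription factors, ERG, ETV1, ETV4, ETV5, ETV6, ETS2, EHF, ELF3, SPDEF and ELF1, followed by their symbols through RNA sequencing of enzalutamide-sensitive and enzalutamide-resistant prostate cancer cell lines. They are 10 of 16126 genes listed in at least 1 of 3 deposited tables, and 10 of 28 ETS genes looked up by name. The C4-2B table lists 8 of them (ERG and ETV1 are not listed), that of CWR-R1 has 9 (ERG is not listed) and the VCaP table all 10, so that 8 are listed in every table.

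Polyadenylated RNA was sequenced from 8 libraries of 3 lineages, each a sensitive line and a resistant line marked ENZR, and the labels pose the question of how the transcriptomes of the sensitive and the resistant lines differ. Enzalutamide is an antiandrogen drug used in advanced prostate cancer. C4-2B, derived from LNCaP cells and able to grow without androgen, and C4-2BENZR each had 2 libraries labelled as biological replicates, and by the labels both carry a luciferase and GFP transgene. CWR-R1, from a relapsed prostate xenograft, CWR-R1ENZR, VCaP, from a vertebral metastasis, and VCaPENZR had 1 library each. How each resistant line was derived, whether it is a clone, and whether drug was present at harvest is not stated in the labels. Every line is a single established cell line, so p-values for C4-2B measure the spread between libraries of the same line and not between tumours. P-values across lineages measure the spread between the differences of the 3 lineages.

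ETS proteins share a DNA-binding domain that recognises a GGAA core. In prostate cancer, androgen-driven promoters such as that of TMPRSS2 are often fused to ERG or, less often, to ETV1, ETV4 or ETV5, and VCaP is the standard cell model of the TMPRSS2-ERG fusion, in which ERG is transcribed from the TMPRSS2 promoter. ETV1, ETV4 and ETV5 form the PEA3 group, whose transcription follows ERK signalling and is held down by the repressor CIC (capicua). EHF, ELF3 and SPDEF are epithelial ETS factors of gland-forming tissues, and ETV6 is a repressor best known from blood cells and leukaemia fusions.

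Promoters of 3 genes are shown as sequence context. Those of SPDEF and ETV1 each hold an octamer of the kind CIC binds, and that of ERG precedes the most upstream of its starts searched. No result rests on them. Each sequence is the 250 bases before an annotated transcription start on the minus strand, from RefSeq (GRCh38.p14), 5′ to 3′. Capitals mark the octamer TGAATGAA or TGAATGGA.
SPDEF, chr6:34556330-34556579: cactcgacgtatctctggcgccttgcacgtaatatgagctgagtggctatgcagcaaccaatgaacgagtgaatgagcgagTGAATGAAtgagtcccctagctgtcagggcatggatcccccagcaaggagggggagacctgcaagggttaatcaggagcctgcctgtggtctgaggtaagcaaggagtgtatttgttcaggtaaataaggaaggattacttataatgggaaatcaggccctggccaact
ETV1, chr7:13991426-13991675: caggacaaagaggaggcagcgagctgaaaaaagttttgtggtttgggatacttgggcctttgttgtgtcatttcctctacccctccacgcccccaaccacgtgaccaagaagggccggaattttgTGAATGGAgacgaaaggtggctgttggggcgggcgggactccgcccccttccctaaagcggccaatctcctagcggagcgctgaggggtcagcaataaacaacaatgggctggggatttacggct
ERG, chr21:38660668-38660917: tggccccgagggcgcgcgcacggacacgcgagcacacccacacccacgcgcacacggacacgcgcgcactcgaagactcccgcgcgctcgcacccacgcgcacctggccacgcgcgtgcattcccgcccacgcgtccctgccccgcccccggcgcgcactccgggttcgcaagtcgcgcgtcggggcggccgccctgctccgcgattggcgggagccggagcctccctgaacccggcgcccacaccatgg

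The octamers were searched on both strands in windows of 250 bases before to 50 bases after each start, 20 windows of 8 of the 10 genes among 35116 windows of all genes. TGAATGAA occurred in 1.65% of all windows and, among these genes, in 1 SPDEF window, 169 bases before the start. TGAATGGA occurred in 1.03% of all windows and in 1 ETV1 window, 125 bases before the start. The ETS motif CCGGAAGT occurred in 4.14% of all windows and in 0 of the 20. Its inner part GGAAGT, which overlaps it by construction, occurred in 22.8% of all windows and in 3 of the 20, of SPDEF, ETV1 and ETS2. A match describes these letters and is no measured binding site.

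Levels below are the deposited scaled read values, close to CPM, and the reads behind them are given in parentheses. The 8 libraries held 14503586 to 20248655 reads in listed genes, so that 3 reads correspond to a level of 0.142 to 0.202. The 3 tables were scaled separately and give no value per transcript length, so levels are compared within a gene and, between tables, only as a description. The library labelled VCaPENZR stood apart from its label. Over 12868 shared genes its log2(level + 1) values correlated with CWR-R1ENZR at r = 0.940 and with CWR-R1 at r = 0.890, but with VCaP at r = 0.728. It is therefore called the library labelled VCaPENZR throughout, and each direction in the VCaP table rests on that label.

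Counts of genes that passed are read against all genes of the same table. In C4-2B 56.8% of 13280 genes passed the test, 27.8% higher and 29.0% lower. In CWR-R1 20.1% of 12462 genes were at least 2-fold apart, 9.79% higher and 10.3% lower. For VCaP 43.1% of 12502 genes were, 21.1% higher and 22.0% lower. In the last 2 tables a gene had to reach a level of 5 in either library, so a gene that did so only where it is high had to differ.

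ERG is listed only in the VCaP table. VCaP had a level of 428 (7523 reads) and the library labelled VCaPENZR 0.179 (3 reads). The latter was 2398-fold lower (exact 95% interval 820 to 11629), a log2(level + 1) difference of -8.51 that ranked 13 from the lowest among 12502 genes. The interval covers counting error only, as do all such intervals here, because 1 library a group shows no spread between libraries. Even counting error may be understated, because the reads carry no molecular identifiers and may be copies of one molecule. With 1 library on each side no test was possible. In bulk RNA, fewer cells of a kind and less RNA per cell cannot be told apart.

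TMPRSS2, the androgen-driven protease gene whose promoter drives ERG in the fusion, was measured in every lineage. In VCaP its level was 684 and in the library labelled VCaPENZR 130, 5.28-fold lower (exact 95% interval 5.04 to 5.53). In CWR-R1 it was 26.2 and in CWR-R1ENZR 55.8, 2.13-fold higher (1.88 to 2.41). In C4-2B it was 235 and 238 and in C4-2BENZR 303 and 286, and it rose by a log2 difference of 0.31 (SE 0.05, limma adjusted p = 7.17e-05). In the library labelled VCaPENZR TMPRSS2 had 2177 reads and ERG 3, and the cause of either level was not tested.

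**Figure D1:**
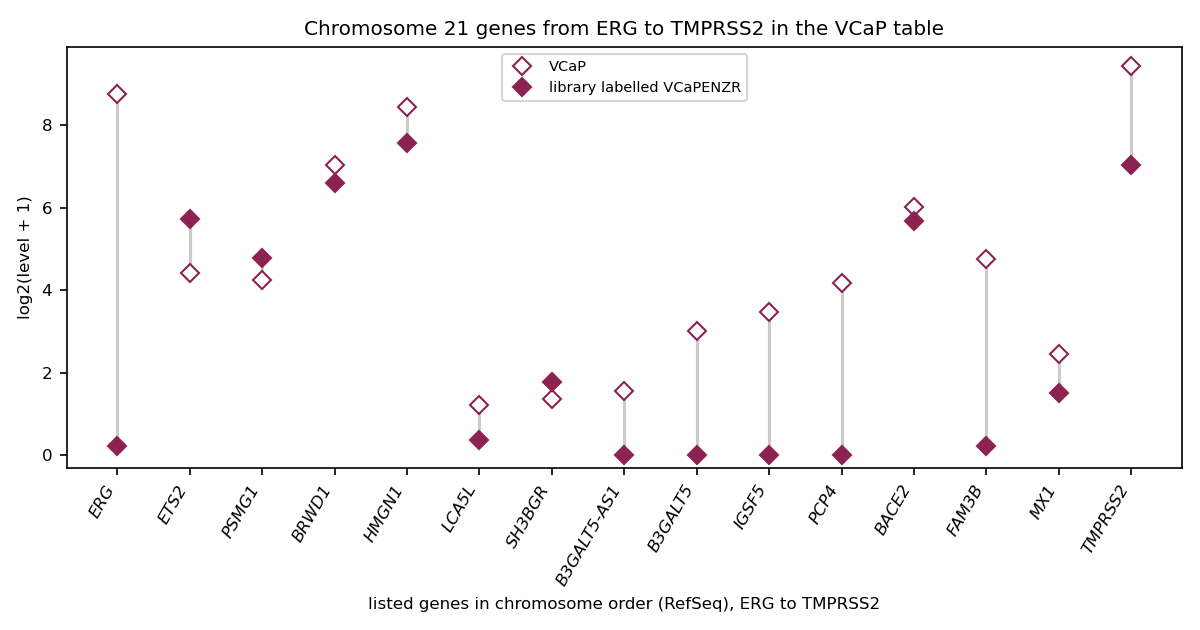
Levels in VCaP (open) and the library labelled VCaPENZR (filled) for ERG, TMPRSS2 and the listed genes between them in chromosome order; the vertical axis is log2(level + 1). ERG is at 428 and 0.179, ETS2 is higher, and PCP4, IGSF5 and B3GALT5 have no read in the library labelled VCaPENZR.

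The fusion in VCaP joins neighbours on chromosome 21, and 50 RefSeq genes lie between TMPRSS2 and ERG, ETS2 among them. The VCaP table lists 13, and 9 reached a level of 5 in either library. Of these, 1 was at least 2-fold higher (ETS2) and 4 at least 2-fold lower, against 21.1% and 22.0% of all genes. All 4 reached that level only in VCaP, so their direction was fixed by the filter and their count is no evidence about this stretch. FAM3B was at 26.0 in VCaP and 0.179 (3 reads) in the library labelled VCaPENZR, 146-fold lower (49.5 to 709). PCP4 (17.1), IGSF5 (10.02) and B3GALT5 (7.002) had 0 reads in that library, which makes them at least 95.6-fold, 56.1-fold and 39.2-fold lower against a floor of 3 reads. The ubiquitously transcribed HMGN1, a nucleosome-binding protein, went from 343 to 188. Of the 7 tested in C4-2B, ETS2 and PSMG1 rose and 0 fell, against 27.8% and 29.0% of all genes, and 3 rose with total-count scaling. Of the 6 compared in CWR-R1, 1 was at least 2-fold higher and 0 lower, against 9.79% and 10.3% of all genes. That gene, MX1, an interferon-induced GTPase, reached a level of 5 only in CWR-R1ENZR.

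Genes associated with ERG fusion in tumours were looked up as a list of 19. Of these, 14 passed the filter for VCaP, of which 10 were at least 2-fold lower and 1 higher, against 22.0% and 21.1% of all genes. Of the 10, 8 reached a level of 5 only in VCaP and had to be lower, so the count is a description. PLA1A, a phospholipase, was at 300.2 in VCaP and 0.179 (3 reads) in the library labelled VCaPENZR, 1681-fold lower (575 to 8152). CRISP3, a secreted cysteine-rich protein, went from 577 to 9.23, 62.6-fold lower (53.4 to 73.8). NCALD, a neuronal calcium sensor, went from 86.8 to 0.238 (4 reads), 364-fold lower (142 to 1339), and HPGD, which degrades prostaglandins, from 92.7 to 0 reads, at least 519-fold lower. In the library labelled VCaPENZR, PLA1A, NCALD and HPGD had 0 to 4 reads and CRISP3 155. A link of these genes to ERG was not tested. EZH2, the 1 higher gene, was at 27.8 in VCaP and 81.5 in that library.

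In the lineages whose tables do not list ERG, the same list was mixed. Among 10 tested in C4-2B, 4 rose and 2 fell, near the 56.8% of all genes that passed. PLA1A rose from 0 reads to a mean of 3.88 ± 0.989 (SD, n = 2; limma adjusted p = 5.35e-07), at least 25.1-fold against 3 reads in each library. FZD4, a Wnt receptor, fell from 108 ± 0.896 to 48.7 ± 6.83 (SD, n = 2; limma adjusted p = 6.72e-09). SOX9, a progenitor-cell transcription factor, rose from 4.57 ± 1.14 to 12.4 ± 0.960 (SD, n = 2; limma adjusted p = 1.38e-05). NCALD rose from a mean of 0.233 (9 reads) in C4-2B to 2.11 (83 reads) in C4-2BENZR (limma adjusted p = 0.000243). In CWR-R1, 3 of 10 were at least 2-fold higher and 2 lower (9.79% and 10.3% of all genes). Of these 5, 4 reached a level of 5 in 1 library only. With total-count scaling 4 were higher. SOX9 was 10.3-fold higher there (17.1 and 176) and PLA1A, at 10.4 in CWR-R1, had 0 reads in CWR-R1ENZR. HPGD was at 19.9 (295 reads) in CWR-R1 and 0.335 (5 reads) in CWR-R1ENZR, 59.4-fold lower (25.2 to 184). HPGD reached a level of 5 only in CWR-R1, and the cause of its difference was not tested.

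The PEA3 group differed the other way from ERG in the VCaP table: ETV1, ETV4 and ETV5 had 0 to 2 reads in VCaP and 370 to 1592 in the library labelled VCaPENZR. ETV4 was higher in the resistant libraries of every lineage. ETV5 was lower in C4-2BENZR and higher in the resistant library of both other lineages, and ETV1 was lower in CWR-R1ENZR.

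ETV4, which is known for roles in cell invasion and branching growth, had levels of 0.670 (13 reads) and 0.259 (5 reads) in C4-2B. In C4-2BENZR the levels were 2.84 (60 reads) and 2.43 (42 reads). The groups did not overlap, and ETV4 rose 5.67-fold in the mean, a log2(level + 1) difference of 1.32 (SE 0.24, limma adjusted p = 0.000167). The added 1 shrinks low levels: edgeR on the recovered reads gave a log2 fold change of 2.50. ETV4 was at 13.3 (197 reads) in CWR-R1 and 50.7 (756 reads) in CWR-R1ENZR, 3.81-fold higher (exact 95% interval 3.25 to 4.48). VCaP had 0 reads of ETV4 and the library labelled VCaPENZR 94.8 (1592 reads), at least 555-fold higher with 3 reads as the floor. The log2(level + 1) difference of 6.58 ranked 28 from the highest of 12502. In that table ETV4 reached a level of 5 only in the library labelled VCaPENZR, so its direction was fixed and the rank is a description. Levels below 3 in C4-2BENZR remained far under the 50.7 and 94.8 of the other resistant libraries.

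ETV5, an ERK-responsive factor also known from sperm stem cells, had levels of 1.08 (21 reads) and 1.40 (27 reads) in C4-2B. In C4-2BENZR they were 0.0473 (1 read) and 0.290 (5 reads). It fell by 0.94 on the log2(level + 1) scale (SE 0.25, limma adjusted p = 0.00409), and by 2.92 in edgeR on reads. This call rested on few reads and was lost without C4-2BENZR replicate 1 (adjusted p = 0.0766). Without either C4-2B library ETV5 was below the filter on low levels and was not tested. ETV5 was at 24.4 (362 reads) in CWR-R1 and 36.4 (543 reads) in CWR-R1ENZR, 1.49-fold higher (1.30 to 1.71), under the 2-fold threshold. It went from 0.114 (2 reads) in VCaP to 80.0 (1343 reads) in the library labelled VCaPENZR, 702-fold higher (194 to 5805). ETV4 and ETV5 therefore differed in direction within C4-2B and shared a direction in the other 2 tables.

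ETV1, the third of the group and a known driver of androgen-related transcription, was at 61.4 (910 reads) in CWR-R1 and 38.6 (576 reads) in CWR-R1ENZR. This was 1.59-fold lower (1.43 to 1.77) and under the 2-fold threshold. In VCaP it had a level of 0.114 (2 reads) and in the library labelled VCaPENZR 22.0 (370 reads), 193-fold higher (53.2 to 1604). Within CWR-R1, ETV1 was thus lower while ETV4 and ETV5 were higher.

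**Figure D2:**
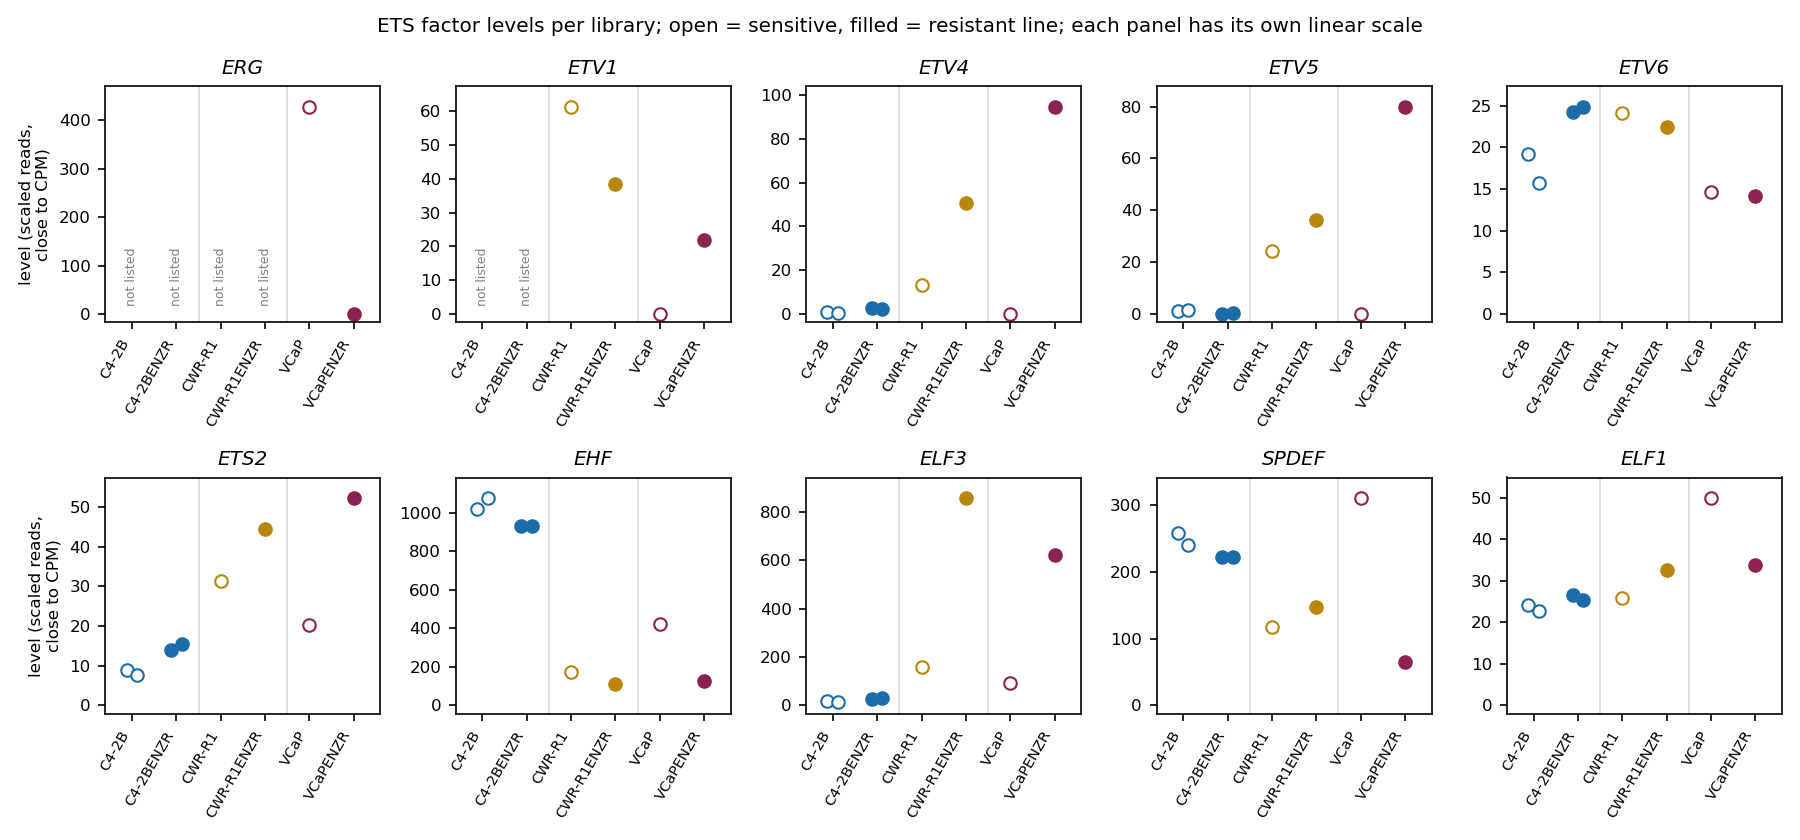
Level of each of the 10 genes in each library (one point per library, own linear scale per panel, open for sensitive and filled for resistant lines). ERG is high only in VCaP, ETV4 and ETV5 are highest in the library labelled VCaPENZR, and ELF3 is highest in CWR-R1ENZR (857) and that library (622).

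Feedback and response genes of ERK signalling, 13 in all, were counted because PEA3 transcription follows ERK. In C4-2B 1 of 10 tested rose and 5 fell, with a median log2 difference of -0.16 (27.8% and 29.0% of all genes). With scaling by total counts 3 fell. In CWR-R1 8 of 12 were higher by 2-fold or more and 0 lower (median 2.26), where 9.79% of all genes were higher and 10.3% lower. For VCaP, 9 of 11 were higher and 0 lower (median 2.93), against 21.1% and 22.0%. Of these, 2 in CWR-R1 and 3 for VCaP (DUSP5, DUSP6 and IER3) reached a level of 5 only in the resistant library. The summed level of the list was 185 and 198 in C4-2B and 94.9 and 94.7 in C4-2BENZR, against 251 and 967 in CWR-R1 and CWR-R1ENZR and 180 and 1637 in the VCaP table.

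PHLDA1, an ERK-induced pleckstrin-like protein, fell in C4-2BENZR from 109 ± 8.53 to 14.9 ± 1.52 (SD, n = 2; limma adjusted p = 4.99e-13). SPRY1 and SPRY2, Sprouty inhibitors of receptor signalling, fell 3.68-fold (adjusted p = 3.2e-05) and 3.02-fold (adjusted p = 0.00625), the latter not without C4-2BENZR replicate 2 (adjusted p = 0.0726). SPRED1, a related inhibitor, rose 1.67-fold (limma adjusted p = 8.12e-05). In CWR-R1ENZR the phosphatase genes DUSP5 (1.62 and 70.2, 43.3-fold), DUSP6 (8.97 and 95.03) and DUSP4 (51.8 and 327) were higher. The library labelled VCaPENZR showed the same 3 genes higher, with DUSP5 at 2.11 and 241 (115-fold, 83.0 to 163), DUSP4 at 29.3 and 915, and DUSP6 at 2.45 and 67.3.

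Regulators that act on ETS proteins or genes numbered 11. CIC, the repressor of the PEA3 genes, rose in C4-2BENZR from 55.0 ± 2.93 to 84.0 ± 0.560 (SD, n = 2; limma adjusted p = 1.95e-06). DET1, part of the ubiquitin ligase that degrades PEA3 proteins, fell 1.98-fold there (limma adjusted p = 0.0051). In all, 2 of 11 rose and 2 fell in C4-2B (1 fell with total-count scaling), where 56.8% of all genes passed. In CWR-R1 0 of 11 were 2-fold apart, against 20.1% of all genes. For VCaP, 2 were higher and 3 lower (2 lower with total-count scaling), against 43.1% either way. Of these, GABPB2 and DET1 reached a level of 5 in 1 of the 2 libraries only, so their direction was fixed. SPOP, a ubiquitin ligase adaptor that recognises ERG, was at 86.0 in VCaP and 21.5 in the library labelled VCaPENZR, 3.999-fold lower (3.56 to 4.50). ATXN1, a partner of CIC, was 3.75-fold higher (3.31 to 4.25).

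The epithelial factors ELF3, EHF and SPDEF did not move as a unit. ELF3 was higher in the resistant library of every lineage, EHF was lower in every lineage, and SPDEF differed in direction between lineages.

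ELF3, an epithelium-specific factor induced by inflammatory signals, was at 18.1 (350 reads) and 15.9 (307 reads) in C4-2B. In C4-2BENZR it was at 27.9 (590 reads) and 30.1 (519 reads). It rose 1.71-fold, a log2 difference of 0.74 (SE 0.11, limma adjusted p = 4.06e-05), and the groups did not overlap. The CWR-R1 level was 159 (2354 reads) and that of CWR-R1ENZR 857 (12790 reads), 5.40-fold higher (5.16 to 5.64) and ranked 242 from the highest of 12462. VCaP had 90.7 (1593 reads) and the library labelled VCaPENZR 622 (10439 reads), 6.85-fold higher (6.50 to 7.23). The C4-2B lineage thus had both the lowest ELF3 levels and the smallest ratio.

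EHF, which in prostate epithelium is known to sustain differentiation, was at 1020 (19782 reads) and 1074 (20756 reads) in C4-2B. Both C4-2BENZR libraries were at 931 (19698 and 16073 reads). It fell by 0.17 on the log2 scale (SE 0.05, limma adjusted p = 0.00649), 1.13-fold. This call was lost with scaling by total counts (-0.07, adjusted p = 0.205) and without C4-2B replicate 2 (adjusted p = 0.0808). CWR-R1 had 174 (2583 reads) and CWR-R1ENZR 112 (1673 reads), 1.55-fold lower (1.46 to 1.65) and under the 2-fold threshold. In VCaP it was at 421 (7401 reads) and in the library labelled VCaPENZR at 129 (2163 reads), 3.27-fold lower (3.12 to 3.43). The lowest and highest levels were 112 in CWR-R1ENZR and 1074 in C4-2B.

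SPDEF, the prostate-derived ETS factor of secretory cells, was at 258 (5011 reads) and 239 (4626 reads) in C4-2B. C4-2BENZR had 223 (4711 reads) and 222 (3837 reads). The log2 difference was -0.16 (SE 0.05, limma adjusted p = 0.0174), a 1.12-fold fall. That call was lost with total-count scaling (-0.06, adjusted p = 0.348) and without C4-2BENZR replicate 1 (adjusted p = 0.0635), C4-2BENZR replicate 2 (0.0692) or C4-2B replicate 1 (0.176). SPDEF was at 117 (1731 reads) in CWR-R1 and 148 (2205 reads) in CWR-R1ENZR, 1.27-fold higher (1.19 to 1.35). VCaP had the highest level, 310 (5441 reads), and the library labelled VCaPENZR the lowest, 65.2 (1095 reads), 4.75-fold lower (4.45 to 5.07).

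Genes of differentiated glandular epithelium, a list of 17, moved in both directions. In C4-2B 4 of 13 tested rose and 8 fell (median -0.32), against 27.8% and 29.0% of all genes, and 6 fell with total-count scaling. The adhesion genes CLDN3 and CDH1 fell 2.73-fold (limma adjusted p = 3.31e-10) and 1.73-fold (6.19e-10), and the luminal keratin KRT8 rose 1.54-fold (3.14e-08). In CWR-R1 6 of 13 were at least 2-fold higher and 1 lower (9.79% and 10.3% of all genes). KRT19, a simple-epithelium keratin, was at 1.55 and 326, and EPCAM, an epithelial adhesion molecule, at 483 and 66.8. KRT19 reached a level of 5 only in CWR-R1ENZR there, so its direction was fixed. For VCaP, 4 of 13 were higher and 3 lower (21.1% and 22.0%), with KRT19 9.40-fold and KRT8 7.72-fold higher and EPCAM 5.44-fold lower. KRT19 was thus higher and EPCAM lower in both lineages that had a single library a group.

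ETS2, ETV6 and ELF1 are broadly expressed. ETS2, an ERK-phosphorylated activator, was at 8.92 (173 reads) and 7.56 (146 reads) in C4-2B. C4-2BENZR had 14.0 (297 reads) and 15.5 (268 reads). It rose 1.79-fold, a log2 difference of 0.77 (SE 0.15, limma adjusted p = 0.000327). CWR-R1 had 31.4 (466 reads) and CWR-R1ENZR 44.5 (664 reads), 1.42-fold higher (1.26 to 1.60), and the VCaP table went from 20.3 (356 reads) to 52.2 (876 reads), 2.57-fold higher (2.27 to 2.92). ETS2 was higher in the resistant library of all 3 lineages, past the 2-fold threshold only in the VCaP table.

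ETV6 was at 19.2 (373 reads) and 15.7 (304 reads) in C4-2B and at 24.3 (514 reads) and 24.9 (430 reads) in C4-2BENZR. It rose 1.41-fold, a log2 difference of 0.48 (SE 0.12, limma adjusted p = 0.00331). In the other lineages the counting intervals included a ratio of 1, at 0.935 (0.803 to 1.09) in CWR-R1, with levels of 24.1 (357 reads) and 22.5 (336 reads), and at 0.961 (0.802 to 1.15) in the VCaP table, with 14.7 (258 reads) and 14.1 (237 reads). No difference was detectable there at this depth.

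ELF1, a general activator, was at 24.1 (468 reads) and 22.8 (441 reads) in C4-2B and at 26.5 (561 reads) and 25.5 (440 reads) in C4-2BENZR. The groups did not overlap, but the log2 difference of 0.14 (SE 0.10) did not pass (limma adjusted p = 0.266). It was 1.27-fold higher in CWR-R1ENZR (1.11 to 1.45), at 25.8 and 32.7, and 1.48-fold lower in the library labelled VCaPENZR (1.33 to 1.65), at 49.9 and 33.8.

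In C4-2B, 7 of 8 genes tested passed: ELF3, ETS2, ETV4 and ETV6 rose and EHF, ETV5 and SPDEF fell. Over all 13280 genes tested 56.8% passed (27.8% higher and 29.0% lower), and the groups did not overlap for 77.4% of all genes and for all 8 of these. The median log2 difference of the 8 was 0.31 against -0.00 over all genes. Without C4-2BENZR replicate 1 the count was 4, with ETV4 then below the filter on low levels. Without either C4-2B library or C4-2BENZR replicate 2, and with total-count scaling, it was 5. Without either C4-2B library ETV5 was below the filter on low levels. The authors' deposited table gives false discovery rates of 0.000287 for EHF, 0.0117 for SPDEF, 0.00114 for ETV5 and 0.237 for ELF1.

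In CWR-R1, 2 of 9 genes were at least 2-fold higher (ETV4 and ELF3) and 0 lower, against 20.1% of all genes. For VCaP, 5 of 10 were higher (ETV1, ETV4, ETV5, ETS2 and ELF3) and 3 lower (ERG, EHF and SPDEF), against 43.1% of all genes. Of these 8, ETV1, ETV4, ETV5 and ERG reached a level of 5 in 1 of the 2 libraries only, so their direction was fixed by the filter. The median over the 9 genes in CWR-R1 was 0.34 against -0.02 over all genes. Many genes differed in both C4-2B and the VCaP table, so the share of ETS genes called is read against that background.

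**Figure D3:**
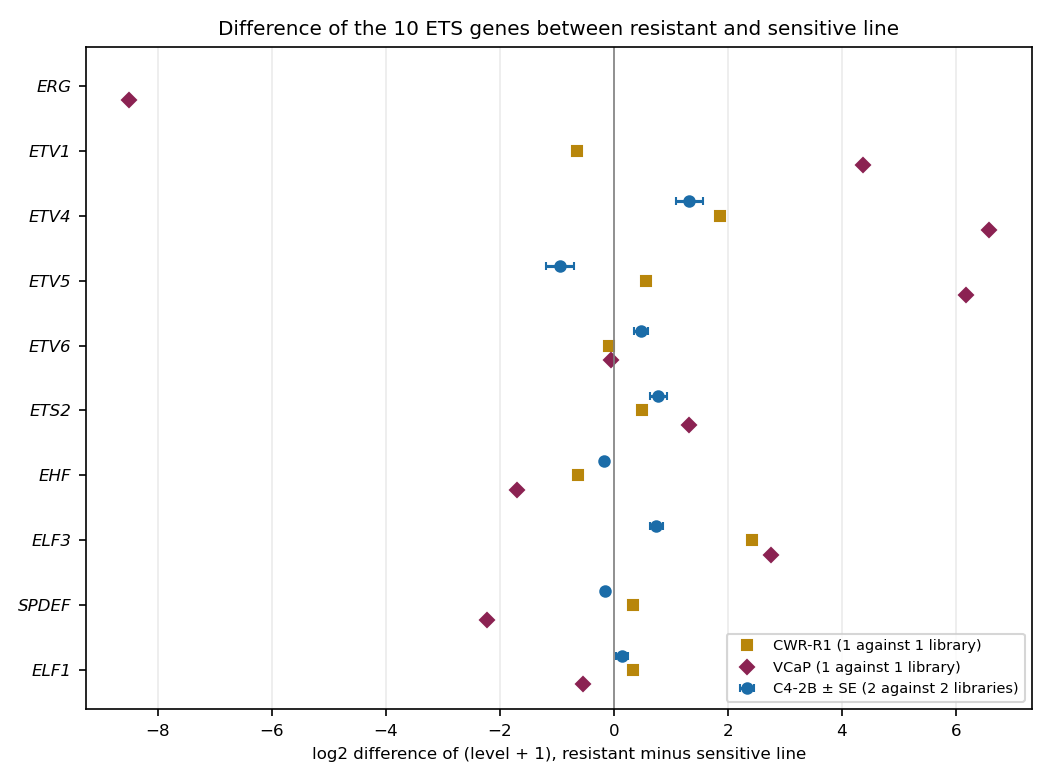
Difference of log2(level + 1), resistant minus sensitive line, for the 10 genes; circles are C4-2B with standard errors (2 against 2 libraries), squares CWR-R1 and diamonds the VCaP table (1 against 1 library each). ERG lies at -8.51 and ETV4, ETV5 and ETV1 at 6.58, 6.18 and 4.37 in the VCaP table, and ELF3 and ETV4 lie above 0 in every lineage.

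Taking each lineage as 1 replicate, 0 of the 8 shared genes and 0 of 12868 genes passed limma over the 3 log2 differences, a background of 0.0%. ELF3 (mean log2 difference 1.98, SE 0.45) and ETV4 (3.25, SE 1.09), both higher in 3 of 3 lineages, had unadjusted p = 0.00573 and 0.0279 and a limma adjusted p of 0.831 each. An unadjusted p under 0.05 was reached by 685 genes in all. ETS2 (0.86, SE 0.36, adjusted p = 0.831) was also higher in 3 of 3 and EHF (-0.83, SE 0.36, adjusted p = 0.831) lower in 3 of 3. ETV5, ETV6, SPDEF and ELF1 were mixed, and 29.0% of all genes had the same sign in every lineage. The library labelled VCaPENZR, which enters 1 of the 3 differences, correlated with CWR-R1ENZR at r = 0.940.

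Over the 8 shared genes, the library labelled VCaPENZR lay nearer to CWR-R1ENZR (median absolute log2 difference 0.55, the greatest 1.17 for SPDEF) than to VCaP (1.97, the greatest 6.58 for ETV4). Its median distance from CWR-R1 was 0.78. Over all shared genes the medians were 0.39, 0.77 and 0.45. The 3 libraries thus came in the same order over the ETS genes as over all genes.

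**Figure D4:**
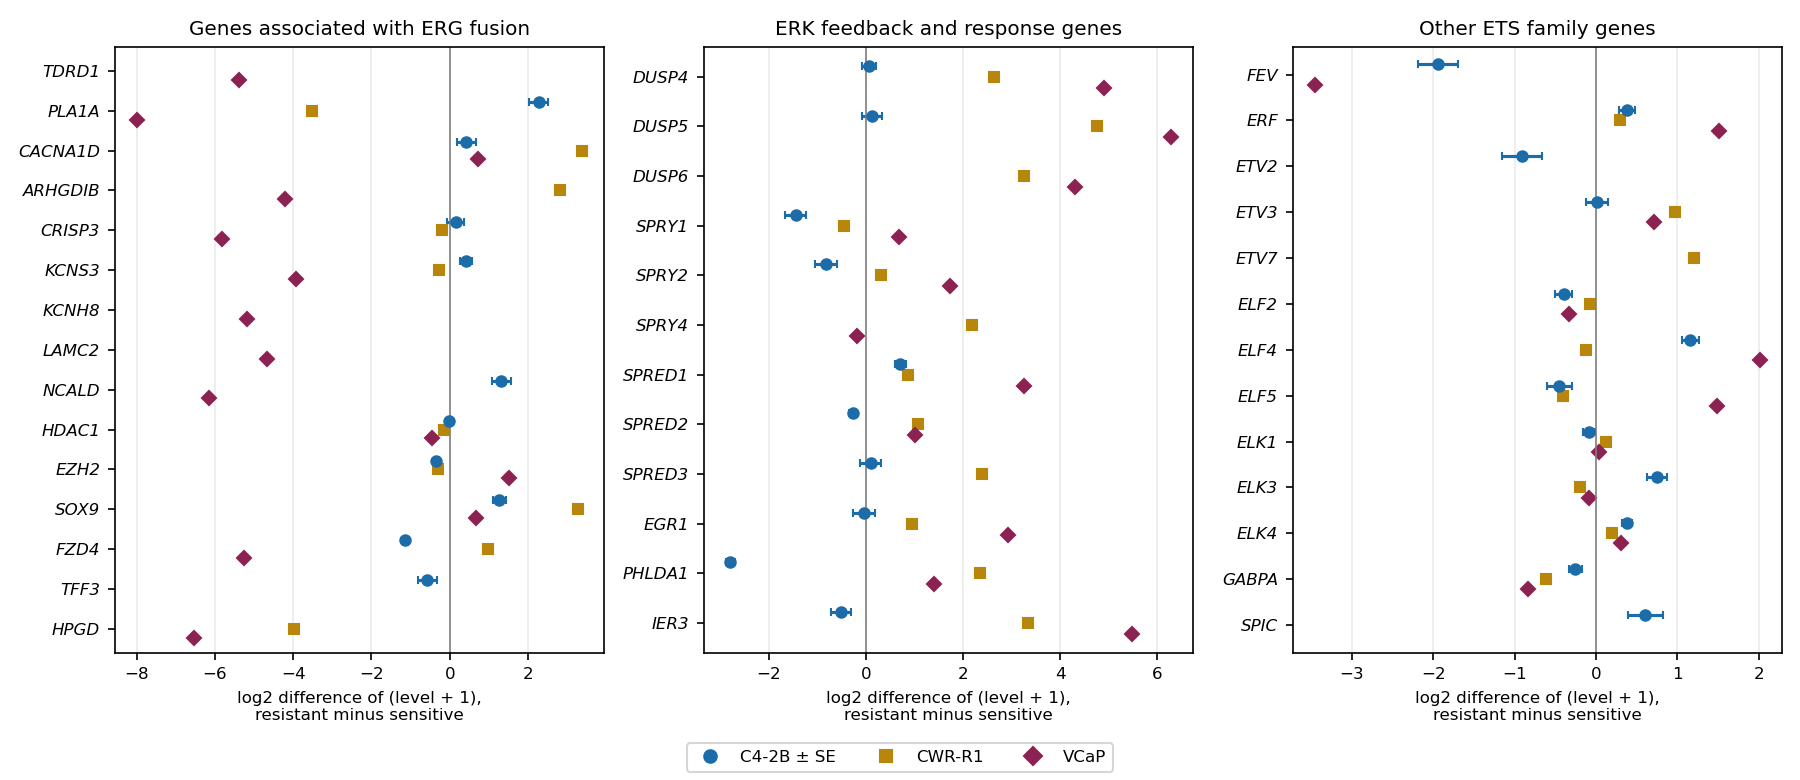
Difference of log2(level + 1), resistant minus sensitive line, for genes associated with ERG fusion, ERK feedback and response genes, and other ETS genes; circles are C4-2B with standard errors, squares CWR-R1 and diamonds the VCaP table. Most ERG-associated genes lie below 0 and most ERK genes above 0 in the VCaP table, while 5 of 10 ERK genes fell in C4-2B (3 with total-count scaling).

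Of the 18 other ETS genes looked up, 14 are listed in at least 1 table. In C4-2B 5 of 12 tested rose and 5 fell (median -0.04), against 27.8% and 29.0% of all genes. Scaled by total counts, 3 fell and the median was 0.06. FEV, a serotonergic-neuron factor close to ERG in its DNA-binding domain, fell from 7.31 ± 1.30 to 1.24 ± 0.853 (SD, n = 2; limma adjusted p = 4.95e-06), and ELF4 rose from 17.0 ± 1.05 to 39.2 ± 2.42 (SD, n = 2; limma adjusted p = 1.14e-07). In CWR-R1 1 of 10, ETV7, was at least 2-fold higher (2.50 and 7.04), against 9.79% of all genes. With total-count scaling 2 were. ETV7 reached a level of 5 only in CWR-R1ENZR, so its direction was fixed. For VCaP, 3 of 10 were higher and 1 lower (21.1% and 22.0% of all genes). The 1 lower gene, FEV, reached a level of 5 only in VCaP, so its direction was fixed. FEV was at 11.3 in VCaP and 0.119 (2 reads) in the library labelled VCaPENZR, 94.7-fold lower (25.9 to 787), while ELF4 (10.9 and 46.9), the repressor gene ERF (33.0 and 95.8) and ELF5 (8.99 and 27.1) were higher. In CWR-R1 the direction differed for FEV, with 0 reads in CWR-R1 and 4.83 (72 reads) in CWR-R1ENZR, at least 23.8-fold higher with 3 reads as the floor. FEV stayed below the level of 5 there and is not among the 10 compared. ELF4 had a ratio of 0.9203 in CWR-R1, and its counting interval (0.831 to 1.02) included 1.

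Genes known as 5′ partners of ETS fusions, TMPRSS2 among them, numbered 10. In C4-2B 7 rose and 2 fell, against 27.8% and 29.0% of all genes, and 1 fell with total-count scaling. SLC45A3, a prostate membrane transporter, rose from 189 ± 4.39 to 439 ± 9.38 (SD, n = 2; limma adjusted p = 6.77e-12), and NDRG1, a stress-response gene, from 68.8 ± 12.4 to 256 ± 15.5 (SD, n = 2; limma adjusted p = 2.9e-11). The same genes were lower in the library labelled VCaPENZR, SLC45A3 at 265 and 33.0 (8.02-fold, 7.34 to 8.77) and NDRG1 at 2368 and 299 (7.92-fold, 7.69 to 8.15). KLK2, a kallikrein protease of prostate secretion, was at 4945 in VCaP and 0.953 (16 reads) there, 5191-fold lower (3196 to 9082). By list, 7 of 10 in VCaP were at least 2-fold lower and 1 higher (median -2.36), against 22.0% and 21.1% of all genes, and 6 were lower with total-count scaling. In CWR-R1 1 of 9, TMPRSS2, was higher (9.79% of all genes), and 2 with total-count scaling.

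Markers of the labelled cell type and of others were summed beside these results. Of 10 prostate markers, all are listed in each table. In C4-2B 7 rose and 3 fell (27.8% and 29.0% of all genes), with KLK3 (prostate-specific antigen) 42.1-fold lower (limma adjusted p = 1.47e-20). In CWR-R1 2 of 8 were at least 2-fold higher and 2 lower (9.79% and 10.3%). With total-count scaling 3 were higher. For VCaP, 2 were at least 2-fold higher (the luminal keratins KRT8 and KRT18) and 7 lower, against 21.1% and 22.0%. With total-count scaling 6 were lower. KLK3 was at 465 and 0.774 (13 reads) and HOXB13, a prostate homeobox factor, at 712 and 34.8. Of the 7, KLK2 and KLK3 reached a level of 5 only in VCaP, so their direction was fixed. The summed level of the 10 markers was 5248 and 5246 in C4-2B and 4253 and 4373 in C4-2BENZR. It was 3246 and 3585 in the CWR-R1 table, and 11552 and 6155 in the VCaP table. Several prostate markers stand in another list too (TMPRSS2 and KLK2 as fusion partners; KRT8, KRT18 and EPCAM in the epithelial list). ERG is also active in endothelium and in blood stem cells. Of 8 endothelial markers, 2, 3 and 2 are listed for C4-2B, for CWR-R1 and for VCaP, and PECAM1, CDH5, TEK and TIE1 in none. Their sums were 7.61 and 8.41 in C4-2B against 4.77 and 4.98 in C4-2BENZR, 13.8 and 31.2 in the CWR-R1 table and 5.58 and 22.6 in the VCaP table. Of 8 blood markers, 2, 3 and 4 are listed (PTPRC, CD3E, HBB and SPI1 in none), with sums of 15.9 and 18.2 against 10.1 and 12.6 in C4-2B, 4.99 and 6.70, and 5.81 and 13.0. Of 6 fibroblast markers, 3, 2 and 2 are listed (COL1A2, COL3A1 and DCN in none), with sums of 13.4 and 17.7 against 50.6 and 54.9 in C4-2B, 33.8 and 66.4, and 29.5 and 17.3. The part of these markers in the ETS differences was not tested.

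The genes whose log2(level + 1) followed each ETS gene most closely over the 8 libraries were taken from 12303 shared genes with a level of at least 5 in some library. The points share 3 separately scaled tables, so r is a description only. ELF3 was matched most closely by AGRN (r = 0.997), a basement-membrane proteoglycan, then PRKAG2 and NFATC2 (0.993 each). ETV4 was matched by MAPK8IP3 (0.992), ATP1B1 and DYRK3 (0.991 each), and ETV5 by KAZALD1 (0.994), CDKN2D (0.993) and ASPM (0.992). EHF was matched by RPS19BP1 (0.998), SPDEF by FAM83H-AS1 (0.995), ETS2 by TUBA1A (0.990), ELF1 by NET1 (0.992) and ETV6 by NBPF11 (0.973). The PEA3 genes ETV4 and ETV5 had no closest match in common among their first 3.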

How the data were processed

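Polyadenylated RNA from 8 libraries was sequenced as 150-base paired ends at Novogene, per the labels' protocols. The submitters' processing notes name hg19; no aligner or counting program is named. There is 1 table for each lineage. The authors made the deposited signal values by dividing read counts by a scaled library size, as the deposited values themselves show (100% whole reads within 0.02 reads). The deposited signed fold change (resistant over sensitive, written negative where lower, and so recorded as a score) was made by the authors and was not used. The authors' p-value and false discovery rate columns were copied only where named.

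The plan named edgeR for counts. As the tables hold scaled reads, C4-2B was tested with limma 3.58.1 in R 4.3.3 on log2(level + 1), over 13280 genes at a level of at least 1 in 2 libraries, adjusted by Benjamini-Hochberg, at a threshold of 0.05. edgeR 4.0.16 on the recovered reads called 7522 genes and limma 7547; DESeq2 1.42.0 was an alternative. On simulated data for C4-2B (13135 genes) limma recovered 86% of 1.5-fold and 99% of 2-fold changes. CWR-R1 and VCaP, with 1 library a group, were not tested: ratios use genes at a level of at least 5 in either library, a 2-fold threshold on log2(level + 1), and exact Clopper-Pearson 95% intervals on reads (scipy 1.17.1). Across lineages, limma was fitted to the shared genes. Adjusted p-values come from limma unless another tool is named.

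The members, lists and tests were chosen with earlier results of these data known. Named were all 10 ETS genes, TMPRSS2, up to 4 genes per list and table with the greatest called difference (not all are printed), and the 3 closest matches of each gene. HMGN1 was chosen after its values were seen. COP1 was matched as RFWD2. Alternatives covered scaling, pseudocount, filter, tool, threshold, replicate block and leaving out each library or lineage. Promoter sequences were available for 8 of the 10 genes.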

Additional observations from a re-analysis of the deposited data

Results flagged for a closer look

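Some ETS genes changed in opposite directions in different lineages. These differences were not tested, since CWR-R1 and VCaP have 1 library a group, and those with VCaP rest on the library labelled VCaPENZR. Values are log2(level + 1) differences, resistant minus sensitive.

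ETV5 was lower in both C4-2BENZR libraries (-0.94) and higher in CWR-R1ENZR (0.56) and for VCaP (6.18), so that the changes lay 1.4999 and 7.13 apart. ETV6 was higher in both C4-2BENZR libraries (0.48) and slightly lower in CWR-R1ENZR (-0.09) and for VCaP (-0.05), differences of -0.57 and -0.53 from C4-2B, although the counting intervals of both single-library ratios included 1. SPDEF was lower in both C4-2BENZR libraries (-0.16) and for VCaP (-2.23) and higher in CWR-R1ENZR (0.34). Its change in CWR-R1 was 0.50 above that in C4-2B, and its change for VCaP relative to CWR-R1 was -2.57. ELF1 was higher in both C4-2BENZR libraries (0.14, not past the test) and in CWR-R1ENZR (0.33) and lower for VCaP (-0.55), differences of -0.69 and -0.88. ETV1 was lower in CWR-R1ENZR (-0.66) and higher for VCaP (4.37), 5.03 apart.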

How the results depend on the processing

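In C4-2B 7 ETS genes were called; leaving out each library in turn gave 4 to 5, and 5 were called with total-count scaling and 5 with a filter at a level of 5. Without either C4-2BENZR library ETV4 was below the filter, and without either C4-2B library ETV5 was. With a filter at a level of 5 both were below it. ETV4, ELF3, ETS2 and ETV6 kept their calls wherever they were tested (greatest adjusted p 0.00108, 0.000709, 0.00253 and 0.0323), and ELF1 passed in none (0.0633 to 0.561). The adjusted p of EHF ranged from 5.21e-06 to 0.205, of SPDEF from 0.000728 to 0.348 and of ETV5 from 0.00138 to 0.0766. Total-count scaling moved the median of all genes from -0.00 to 0.10 on the log2 scale. In CWR-R1 the 2 genes became 4 at 1.5-fold, and the 8 of VCaP became 7 at 3-fold. Across lineages 0 were called under every alternative, and signs turned for ELF1 with total counts (0.0639) and for 4 genes without 1 lineage: the values then ran from -0.205 to 0.23 for ELF1, -0.19 to 3.37 for ETV5, -0.0736 to 0.211 for ETV6 and -1.20 to 0.088 for SPDEF; the cause was not tested. Of 25 other named genes in C4-2B, 23 kept their call under each alternative; SPRY2 and GABPB2 did not; these genes and the scaling of list counts were added after seeing the data. A replicate block called 7 of the ETS genes and 8248 genes in all, and changed no ETS call; what the numbers share is not labelled, there are only 2 pairs, and the deviations of same-numbered libraries correlated at 0.0502. Depth limits ETV4 and ETV5 in C4-2B and every gene at 0 to 5 reads in VCaP or the library labelled VCaPENZR.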
